A study of Mus musculus with 9 samples.

Results

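Choline transport and phosphatidylcholine synthesis were examined through 10 genes, Chka, Pcyt1a, Pcyt1b, Chpt1, Cept1, Pemt, Slc44a1, Slc44a2, Slc44a3 and Slc22a3. They were taken by symbol from the table of counts, and all 10 were found among its 24421 genes. All 10 also had enough counts for the test, as did 13901 genes in all. RNA was sequenced from tumors that bEnd.3 cells formed in the flank of male Nu/Nu nude mice, which lack a thymus. bEnd.3 is a line of mouse endothelium immortalized with polyoma virus middle T antigen. The R-propranolol group held 5 tumors from mice given R-propranolol, the isomer of propranolol with little beta-blocking activity, at 6 mg/kg per day by injection into the peritoneum, 5 times a week. The vehicle group held 4 tumors from mice given ethanol in buffered saline on the same schedule. Both groups carried the same cell line and host strain, and the sources used here do not give the age of the mice. A tumor of this kind contains the injected cells together with cells of the host, so less RNA per cell and fewer cells of a type cannot be told apart in any value that follows. The question of the comparison was whether R-propranolol changed the RNA of these genes in tumors.

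Phosphatidylcholine is the main phospholipid of most mammalian membranes. In the Kennedy pathway, choline is taken up by carriers in the plasma membrane, phosphorylated by a choline kinase, activated with CTP by a cytidylyl transferase, and joined to diacylglycerol by a cholinephosphotransferase. The cytidylyl transferase step is usually the one that sets the rate, and choline kinase alpha is known to be raised in many tumors. A second route, most active in liver, methylates phosphatidylethanolamine.

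Chka encodes choline kinase alpha and lies on chromosome 19 of GRCm38 from 3851773 to 3894369. Pcyt1a and Pcyt1b encode the cytidylyl transferases alpha and beta, and lie on chromosome 16 from 32430921 to 32475070 and on chromosome X from 93654863 to 93749951. The 250 bases before the outermost annotated start of these 3 genes are shown, because Chka and Pcyt1b were the genes whose groups separated, and Pcyt1a is the paralog that carries the same step as Pcyt1b. They are from RefSeq on GRCm38.p6, read along the plus strand, which is the strand of all 3 genes. Capitals mark the GC box, the letters GGGCGG on either strand, where neighboring matches may overlap.
Chka chr19:3851523-3851772: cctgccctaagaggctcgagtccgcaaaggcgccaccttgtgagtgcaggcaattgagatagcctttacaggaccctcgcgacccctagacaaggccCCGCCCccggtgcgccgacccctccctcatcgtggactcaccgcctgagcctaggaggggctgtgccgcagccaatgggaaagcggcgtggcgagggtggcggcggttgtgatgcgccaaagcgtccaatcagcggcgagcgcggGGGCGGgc
Pcyt1b chrX:93654613-93654862: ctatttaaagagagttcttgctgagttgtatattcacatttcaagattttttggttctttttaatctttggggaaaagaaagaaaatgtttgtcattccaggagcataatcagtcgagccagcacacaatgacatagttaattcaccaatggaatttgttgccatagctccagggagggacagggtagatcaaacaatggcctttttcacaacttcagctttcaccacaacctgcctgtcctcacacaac
Pcyt1a chr16:32430671-32430920: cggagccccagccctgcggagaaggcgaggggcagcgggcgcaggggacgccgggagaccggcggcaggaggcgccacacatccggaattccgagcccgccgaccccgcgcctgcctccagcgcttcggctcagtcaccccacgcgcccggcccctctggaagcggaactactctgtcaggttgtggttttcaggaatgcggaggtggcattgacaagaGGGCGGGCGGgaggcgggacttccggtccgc
The Chka and Pcyt1a windows were 68% and 71.6% G or C and held 2 GC boxes each, whereas the Pcyt1b window was 39.6% G or C and held 0. A GC box was present in 32.7% of the 32851 promoter windows of this length in the table. Of all 18 windows that the table gives for the 10 genes, 10 had a GC box. Some windows of Slc44a1, Cept1 and Pcyt1a overlap, so the same bases can count more than once. Those of Slc44a1 start at 53440163 and 53440166. By gene, 7 had a GC box in at least 1 window, and the share of all genes with this was not counted. The core GCGTGGGCG, which Egr1 is known to bind, was in none of the 18 windows, against 0.536% of all windows. The AP-1 motif TGANTCA was also in none of the 18, against 6.75% of all windows. These are matches of letters in these windows only, and which start was used in the tumors was not measured.

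Counts in genes ranged from 21084749 to 27852630 in R-propranolol tumors and from 20599904 to 24949010 in vehicle tumors. Values are given in CPM, the usual unit of a count relative to the size of its library, here after scaling by TMM, a factor that aligns most genes between libraries. Replicate 5 of the R-propranolol group stood apart. The summed level of 12 skeletal muscle markers was 178301 CPM in this tumor, against 5.71 to 12.8 CPM in the other R-propranolol tumors and 5.17 to 407 CPM in vehicle tumors. Muscle actin Acta1 had 42250 CPM there and myosin Myh4 had 34122 CPM. The sum of 11 adipocyte markers was 9923 CPM, against 124 to 261 CPM in the other R-propranolol tumors and 165 to 603 CPM in vehicle tumors. All 10 endothelial markers were detected in every tumor, and their sum of 595 CPM in replicate 5 lay between the 375 to 860 CPM of the other R-propranolol tumors. Among the 3 of them with the highest mean CPM, Tie1 was lower in replicate 5 than in any other tumor (60.0 CPM, against 173 to 205 CPM in the other R-propranolol tumors and 150.4 to 189 CPM in vehicle tumors), Cdh5 (127 CPM) lay inside the range of the others, and Pecam1 (142 CPM) lay inside that of the other R-propranolol tumors and above the 41.1 to 63.0 CPM of vehicle tumors. Vehicle replicates 1 and 2 have 1 mouse number in common in their titles and were treated as separate tumors. The TMM factor of R-propranolol replicate 5 was 0.753, against 0.966 to 1.10 in the other tumors, and a lower factor raises CPM. Because replicate 5 touches most results, fold changes are given with all 9 tumors and with the 8 tumors other than replicate 5.

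With all 9 tumors, no member of the group passed the test. At an adjusted p under 0.05 from edgeR's quasi-likelihood test, 0 of 10 members and 0% of all genes were called, and DESeq2 called 0 members and 2 genes. At an unadjusted p under 0.05 there were 0 of 10 members in edgeR, against 2.3% of all genes. The members' log2 fold changes had a median of 0.26 and 8 of 10 were above 0, while the median over all 13901 genes was 0.03. Under library size alone, without TMM, these medians were 0.13 for the members, with 6 of 10 above 0, and -0.10 for all genes. With the 8 tumors, the median of the members was 0.04 with 5 of 10 above 0, against 0.01 over all 13743 genes tested. An adjusted p under 0.05 was again reached by 0 members and 0% of all genes in edgeR, and by 0 members and 20 genes in DESeq2.

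**Figure D1:**
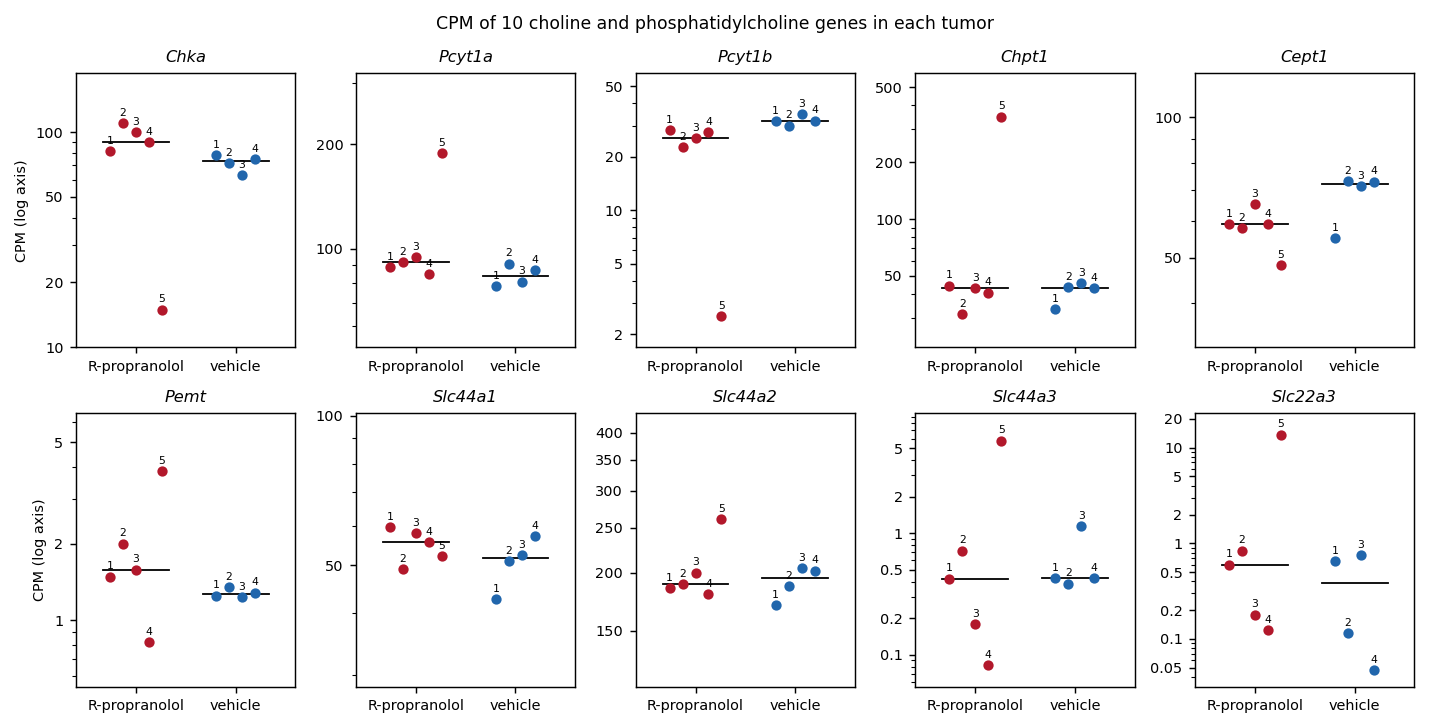
CPM on a log axis for the 10 genes in each tumor, with R-propranolol tumors in red at the left of each panel and vehicle tumors in blue at the right. Points are numbered by replicate and the black line is the group median; R-propranolol replicate 5 lies far from the other tumors for Chka, Pcyt1a, Pcyt1b, Chpt1, Pemt, Slc44a3 and Slc22a3.

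The kinase gene Chka was higher in R-propranolol tumors once replicate 5 was set aside. It had 81.6, 111, 100.3, 90.2 and 14.96 CPM in R-propranolol replicates 1 to 5, against 78.0, 72.0, 63.2 and 74.9 CPM in vehicle replicates 1 to 4. The first 4 treated tumors all lay above the highest vehicle tumor, and replicate 5, with 225 counts, lay 4.22-fold below the lowest of the other 8 tumors. With the 8 tumors the means were 95.6 ± 12.5 CPM in R-propranolol tumors and 72.0 ± 6.38 CPM in vehicle tumors (SD, n = 4 each). The log2 fold change was 0.41 (standard error [SE] 0.10, 95% interval 0.17 to 0.64), which is 1.33-fold. This was under an unadjusted p of 0.05, which 2.65% of all genes reached on the higher side, but not under an adjusted one (adjusted p = 0.9995 from edgeR). The groups did not overlap, as for 1.83% of all genes on that side. By exact permutation of the tumors between groups, the difference in mean log2 CPM had a two-sided p of 0.0286, the smallest value that 4 tumors against 4 allow. Groups of 4 that do not overlap always give this p, so it adds nothing to the lack of overlap. With all 9 tumors the log2 fold change was 0.14 (SE 0.46, 95% interval -0.89 to 1.18, adjusted p = 0.922 from edgeR). Chka shares 239 of its 12024 exon bases with Gm16066 and AC133523.2, which lie on the other strand.

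At the next step, the groups separated for the cytidylyl transferase gene Pcyt1b and overlapped for Pcyt1a, and the difference between their fold changes was not tested. Pcyt1b, the beta form, known as the form abundant in brain, was lower in all R-propranolol tumors. It had 28.2, 22.6, 25.6, 27.4 and 2.53 CPM in R-propranolol replicates 1 to 5, against 31.9, 30.0, 34.8 and 32.0 CPM in vehicle replicates 1 to 4. All 5 treated tumors lay below the lowest vehicle tumor, which was so for 0.626% of all genes on the lower side, and it was the only member whose groups did not overlap with 9 tumors. Replicate 5, with 38 counts, was the lowest by 8.95-fold. The log2 fold change was -0.59 (SE 0.53, 95% interval -1.80 to 0.61, adjusted p = 0.876 from edgeR), and the two-sided exact permutation p for mean log2 CPM was 0.103.
With the 8 tumors Pcyt1b averaged 25.97 ± 2.49 CPM in R-propranolol tumors and 32.2 ± 1.99 CPM in vehicle tumors (SD, n = 4 each). The log2 fold change was then -0.31 (SE 0.09, 95% interval -0.52 to -0.10), a level of 0.807 times that of vehicle tumors. It was under an unadjusted p of 0.05, which 1.13% of all genes reached on the lower side, and its groups did not overlap, as for 1.09% of all genes on that side. The two-sided exact permutation p was again the smallest possible, 0.0286, which the lack of overlap fixes. The other 8 members, whose groups overlapped, had exact permutation p between 0.143 and 0.771. The adjusted p of Pcyt1b was 0.9995 from edgeR.

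Pcyt1a, the alpha form found in most tissues, overlapped between the groups. It had 88.6, 91.5, 94.9, 84.8 and 188 CPM in R-propranolol replicates 1 to 5, against 78.2, 90.7, 80.6 and 86.8 CPM in vehicle replicates 1 to 4. Replicate 5 was 1.98-fold above the highest other tumor, and the other 8 varied by 6.49% (SD over mean). With the 8 tumors the log2 fold change was 0.10 (SE 0.07, 95% interval -0.05 to 0.24), and with all 9 it was 0.38 (SE 0.24, adjusted p = 0.876 from edgeR). An increase of the size seen for Chka lay outside the 8-tumor interval. Pcyt1a shares 674 of its 7412 exon bases with 2210020O09Rik and Slc51a on the other strand.

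The final step is carried out by the cholinephosphotransferase Chpt1 and by Cept1, an enzyme that accepts both choline and ethanolamine. Chpt1, on chromosome 10 from 88452745 to 88504073, had 44.4, 31.3, 43.0, 40.7 and 349 CPM in R-propranolol replicates 1 to 5, against 33.2, 43.4, 45.6 and 43.2 CPM in vehicle replicates 1 to 4. Replicate 5 was 7.64-fold above the highest other tumor, and the remaining 8 overlapped. Its log2 fold change was 1.29 with all 9 tumors (SE 0.76, adjusted p = 0.876 from edgeR) and -0.05 with the 8 (SE 0.14, 95% interval -0.37 to 0.26). Cept1, on chromosome 3 from 106502260 to 106547802, had 59.0, 58.0, 65.1, 59.1 and 48.2 CPM in R-propranolol replicates 1 to 5, against 55.1, 73.1, 71.3 and 72.9 CPM in vehicle replicates 1 to 4. Every treated tumor lay below vehicle replicates 2, 3 and 4, but 4 of them lay above vehicle replicate 1. The log2 fold change of Cept1 was -0.23 (SE 0.12, 95% interval -0.51 to 0.04) with 9 tumors and -0.18 (SE 0.10, 95% interval -0.40 to 0.05) with 8, and it did not pass the test. Without vehicle replicate 1 it was -0.32, which was under an unadjusted p of 0.05 but not an adjusted one. On the other strand, Chpt1 shares 660 exon bases with Sycp3 and Cept1 shares 776 with Dennd2d and Dram2.

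**Figure D2:**
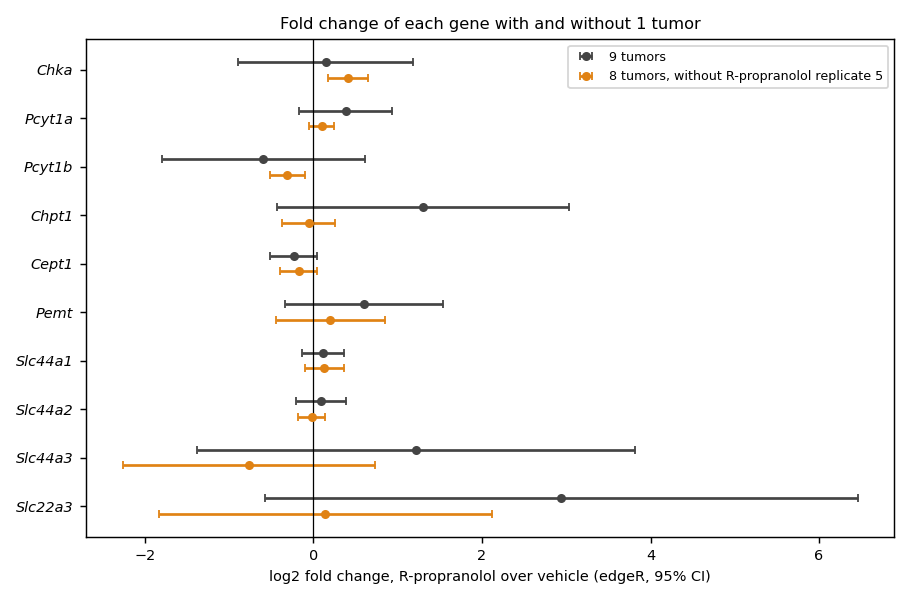
Log2 fold change of each gene, R-propranolol over vehicle, from edgeR with 95% confidence intervals as bars, with all 9 tumors in gray above and with 8 tumors in orange below. With 8 tumors the intervals of Chka (0.17 to 0.64) and Pcyt1b (-0.52 to -0.10) lie on 1 side of 0, before any adjustment for the number of genes.

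Ratios within a tumor do not depend on its library size. Chka over Pcyt1a, each per exon length, was 0.568, 0.745, 0.651 and 0.656 in R-propranolol replicates 1 to 4 and 0.049 in replicate 5, against 0.615, 0.489, 0.483 and 0.532 in vehicle tumors. Vehicle replicate 1 lay above R-propranolol replicate 1, so these ratios overlapped. Pcyt1b over Pcyt1a was 0.441, 0.342, 0.373 and 0.448 in R-propranolol replicates 1 to 4 and 0.0186 in replicate 5, against 0.565, 0.457, 0.597 and 0.510 in vehicle tumors. All 5 treated tumors had less Pcyt1b per Pcyt1a than any vehicle tumor, although R-propranolol replicate 4 and vehicle replicate 2 lay close together. Pcyt1b by itself already separated the groups, so this ratio adds little to that. The share of other gene pairs that separate was not counted. Chpt1 over Cept1 was 0.202 to 0.281 in R-propranolol replicates 1 to 4 and 2.71 in replicate 5, against 0.222 to 0.240 in vehicle tumors. Replicate 5 was the only tumor with more Chpt1 than Cept1.

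**Figure D3:**
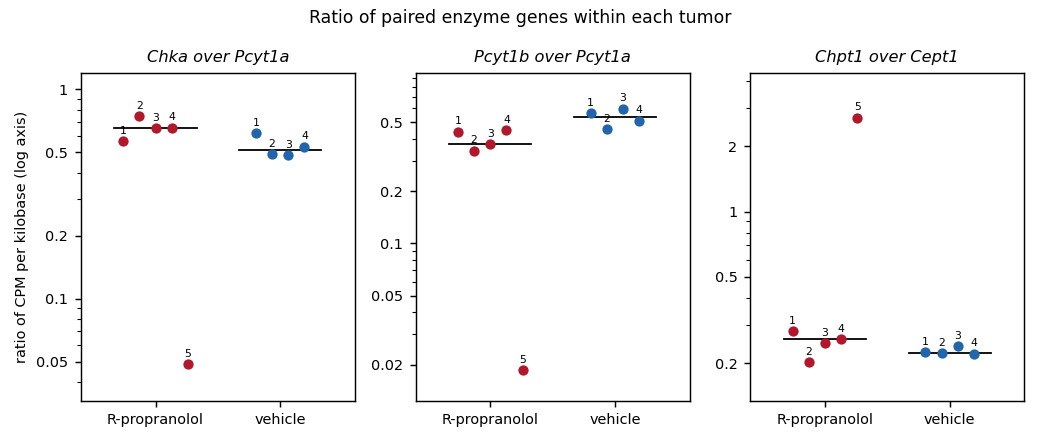
Ratio of CPM per kilobase of exon between enzymes of the pathway within each tumor, on a log axis, with R-propranolol tumors in red at the left and vehicle tumors in blue at the right, numbered by replicate, with the group median as a line. Replicate 5 of R-propranolol lies at 0.049 for Chka over Pcyt1a, 0.0186 for Pcyt1b over Pcyt1a and 2.71 for Chpt1 over Cept1.

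Pemt, the enzyme that methylates phosphatidylethanolamine to phosphatidylcholine and is known mainly from liver, was low in all tumors. It lies on chromosome 11 from 59970614 to 60046489. It had 1.48, 2.00, 1.58, 0.820 and 3.86 CPM in R-propranolol replicates 1 to 5, from 20 to 58 counts, against 1.25, 1.35, 1.23 and 1.28 CPM in vehicle replicates 1 to 4, from 27 to 35 counts. The treated tumors lay on both sides of the narrow vehicle range, with replicate 5 highest. The log2 fold change was 0.60 (SE 0.41, 95% interval -0.34 to 1.54, adjusted p = 0.876 from edgeR) with 9 tumors and 0.20 (SE 0.28, 95% interval -0.45 to 0.85) with 8. Beside this, 13 hepatocyte markers summed to 294 CPM in replicate 5, of which Cyp2e1 made up 243 CPM, against 23.4 to 108 CPM in the other R-propranolol tumors and 2.61 to 40.5 CPM in vehicle tumors. Alb (20.7 CPM) and Ahsg (9.38 CPM) in replicate 5 lay inside the range of the other R-propranolol tumors. The higher hepatocyte sum there thus came mainly from Cyp2e1. Any part of hepatocyte RNA in the Pemt values was not tested.

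Of the choline transporter-like proteins, Slc44a1 and Slc44a2 each varied little between tumors, by 10.5% and 6.21% (SD over mean) in the 8 tumors other than replicate 5. Slc44a1, the plasma membrane and mitochondrial choline carrier, lies on chromosome 4 from 53440413 to 53622478. It had 59.6, 49.1, 58.0, 55.7 and 52.2 CPM in R-propranolol replicates 1 to 5, against 42.7, 50.9, 52.5 and 57.1 CPM in vehicle replicates 1 to 4. After TMM scaling it was the member that differed least in replicate 5, which lay inside the range of the other 8. In counts it was lowest there, with 785 against 992 to 1690 in the other tumors, although vehicle replicate 4 was a smaller library. Its log2 fold change was 0.11 (SE 0.11, 95% interval -0.14 to 0.36) with 9 tumors and 0.13 (SE 0.10, 95% interval -0.10 to 0.36) with 8. Slc44a2, a related carrier also known as a neutrophil antigen in humans, lies on chromosome 9 from 21320698 to 21355028. It had 185, 189, 199.9, 180.0 and 260.3 CPM in R-propranolol replicates 1 to 5, against 170.3, 187, 204 and 202 CPM in vehicle replicates 1 to 4. Apart from replicate 5, the treated tumors lay inside the vehicle range, and the log2 fold change with 8 tumors was -0.02 (SE 0.07, 95% interval -0.18 to 0.14). With 9 tumors it was 0.09 (SE 0.13), and neither carrier passed the test (adjusted p = 0.878 for both from edgeR).

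Slc44a3, another member of that carrier family, and Slc22a3, a transporter of organic cations, were close to the limit of detection except in replicate 5. Slc44a3, on chromosome 3 from 121459528 to 121532404, had 12, 18, 5, 2 and 87 counts in R-propranolol replicates 1 to 5, against 10, 10, 29 and 9 counts in vehicle replicates 1 to 4. Slc22a3, on chromosome 17 from 12418960 to 12507704, had 17, 21, 5, 3 and 206 counts in R-propranolol replicates 1 to 5, against 15, 3, 19 and 1 counts in vehicle replicates 1 to 4. Replicate 5 was thus 5.03-fold above the highest other tumor for Slc44a3 and 16.3-fold above it for Slc22a3, in CPM. With 8 tumors the log2 fold change of Slc44a3 was -0.77 (SE 0.65, 95% interval -2.26 to 0.72) and that of Slc22a3 was 0.14 (SE 0.86, 95% interval -1.83 to 2.12). A 2-fold change in either direction lay within the interval of Slc22a3. For Slc44a3, a 2-fold decrease lay within the interval and a 2-fold increase lay outside it. With 9 tumors the log2 fold change of Slc44a3 was 1.22 (SE 1.15, 95% interval -1.38 to 3.82, adjusted p = 0.876 from edgeR). For Slc22a3 it was then 2.94 (SE 1.55, 95% interval -0.57 to 6.46, adjusted p = 0.876 from edgeR), the largest among the members. On the other strand, Slc44a3 shares 349 exon bases with A530020G20Rik and Slc22a3 shares 420 with Plg.

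In R-propranolol replicate 5 the members went both ways. Chpt1, Slc44a3 and Slc22a3 were at least 2-fold above the highest of the other 8 tumors, as were 14.3% of all genes. Pcyt1a and Pemt, at 1.98-fold and 1.93-fold, lay just under that line. Chka and Pcyt1b were at least 2-fold below the lowest of the others, as were 14.3% of all genes. After TMM scaling, Cept1 lay 1.14-fold below the lowest other tumor, Slc44a2 lay 1.27-fold above the highest and Slc44a1 lay within the range. These placements depend on the scaling. In counts, Slc44a1 was lowest in replicate 5, at 785. Slc44a2 had 3915 counts there and 3957 in vehicle replicate 1, with 21084749 and 21185689 counts in genes. The skeletal muscle and adipocyte sums were also far higher in replicate 5. The mural sum was 8981 CPM, against 142 to 479 CPM in the other R-propranolol tumors and 130 to 225 CPM in vehicle tumors, but 8693 CPM of it was Des, which encodes desmin and is also expressed in skeletal muscle. The pericyte receptor gene Pdgfrb was at 50.9 CPM, below every other tumor, and Notch3 at 41.6 CPM lay inside the range of the other R-propranolol tumors. The part of these cells in the values of replicate 5 was not tested. Among the 8 other tumors, the summed level of each of the 10 marker lists overlapped between the groups. For endothelial markers it was 375 to 860 CPM in R-propranolol tumors and 350 to 469 CPM in vehicle tumors, and for fibroblast markers it was 5218 to 31247 CPM in R-propranolol tumors and 5859 to 8483 CPM in vehicle tumors. R-propranolol replicate 2 had the highest endothelial, fibroblast and mural sums of these 8 tumors, and also the highest Chka and the lowest Pcyt1b. Without R-propranolol replicates 2 and 5, the log2 fold change was 0.33 for Chka and -0.25 for Pcyt1b. Vehicle replicates 1 and 3 had skeletal muscle sums of 407 and 399 CPM, above the other tumors of the 8. The part of these cells in the values of Chka and Pcyt1b was not tested.

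Scaled to exon length, the members spanned a wide range of levels. The highest in vehicle tumors were Slc44a2 (22.02 ± 1.82 CPM per kilobase) and Cept1 (21.9 ± 2.79 CPM per kilobase, SD, n = 4 each), above 82.3% and 82.2% of the 13380 tested genes with a length. Pcyt1a followed at 11.3 ± 0.776 CPM per kilobase, apart from its neighbors on both sides. Slc44a1 (7.31), Pcyt1b (6.01), Chka (5.99) and Chpt1 (4.97) came next, near the middle of all genes, and each overlapped with its neighbor in this order across the 4 vehicle tumors. Pemt (0.607) stood alone at a lower level, and Slc44a3 (0.118) and Slc22a3 (0.0866) overlapped at the bottom, above 2.90% and 1.61% of tested genes. In R-propranolol replicates 1 to 4, Chka was at 7.95 ± 1.04 CPM per kilobase, close to Slc44a1 at 8.01 ± 0.666, and Pcyt1b was at 4.85 ± 0.465 CPM per kilobase, close to Chpt1 at 4.79 ± 0.709 (SD, n = 4 each). Lengths are those of all annotated exons merged, so a gene with unused exons is understated.

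**Figure D4:**
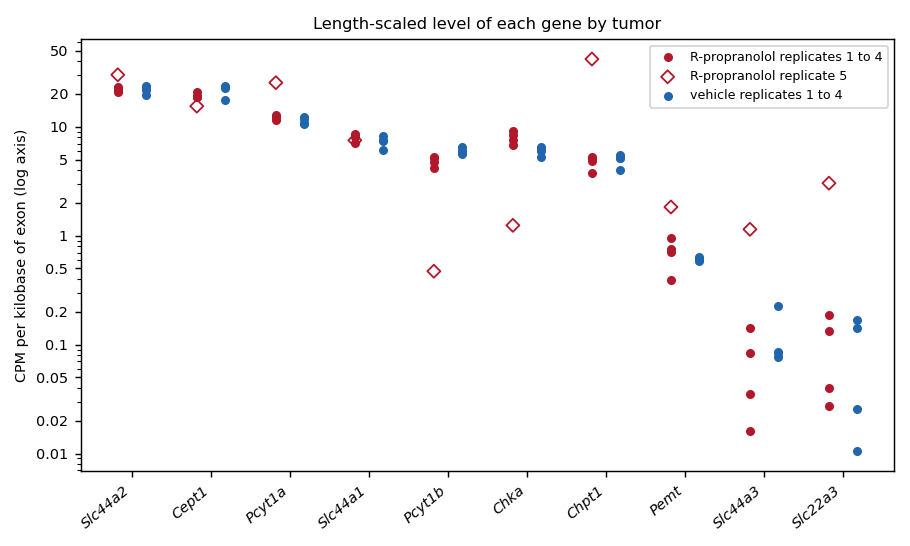
CPM per kilobase of exon on a log axis for the 10 genes, ordered by their mean in vehicle tumors, with R-propranolol tumors in red (replicate 5 as an open diamond) at the left of each gene and vehicle tumors in blue at the right. Levels in vehicle tumors run between 22.02 for Slc44a2 and 0.0866 for Slc22a3, and replicate 5 departs from this order, with Chpt1 highest and Pcyt1b lowest.

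The neighboring steps of the pathway were read from lists of 53 further genes in the table, of which 43 had enough counts. None of the 43 passed an adjusted p of 0.05 from edgeR with 9 or with 8 tumors. At an unadjusted p under 0.05 there was 1 with 9 tumors, Ache, and 0 with 8. The other choline kinase gene, Chkb, had 0 to 5 counts in R-propranolol tumors and 0 to 2 counts in vehicle tumors, and the transporters Slc44a4, Slc44a5, Slc5a7 and Slc22a2 had at most 8 counts in any tumor. Chka was therefore the only choline kinase gene with enough counts for the test. Chkb shares 1552 exon bases with Gm44502 on the same strand, so its count may be understated.
In the ethanolamine branch of the Kennedy pathway, 1 of 4 genes was higher with 9 tumors, with a median of -0.09, and with 8 tumors 2 of 4 were higher with a median of -0.0045. Its kinase Etnk1 had 107 ± 14.7 CPM in R-propranolol tumors and 112 ± 2.12 CPM in vehicle tumors (SD, n = 5 and 4), a log2 fold change of -0.07 (SE 0.11), or -0.02 with 8 tumors. Its cytidylyl transferase Pcyt2 had a log2 fold change of 0.06 (SE 0.21) and its phosphotransferase Ept1 had -0.11 (SE 0.16), and with 8 tumors these were 0.06 and 0.01. The phosphatidylserine synthases Ptdss1 and Ptdss2 had -0.04 (SE 0.10) and 0.11 (SE 0.16) with 9 tumors, and -0.09 and 0.02 with 8.
Among 10 genes that supply diacylglycerol, 8 were higher with 9 tumors with a median of 0.43, and 6 with 8 tumors with a median of 0.04. The phosphatidate phosphatase Lpin1 had 438 CPM in replicate 5, against 13.5 to 22.7 CPM in the other R-propranolol tumors and 14.7 to 22.4 CPM in vehicle tumors. The acyltransferase Gpam had 285 CPM there, against 33.3 to 43.5 CPM in the other R-propranolol tumors and 33.5 to 40.4 CPM in vehicle tumors. Like Chpt1, both were far higher in this tumor than in any other, with log2 fold changes of 2.40 (SE 1.16) for Lpin1 and 1.23 (SE 0.69) for Gpam with 9 tumors and -0.03 and 0.07 with 8. Agpat1, the most abundant per length among the genes of the list that had a length, had 0.07 (SE 0.10) with 9 and 0.02 with 8. Ppap2a, Ppap2b and Ppap2c had no length under these symbols and were not ranked.
Remodeling of phosphatidylcholine was represented by 8 tested genes, 2 of them higher with 9 tumors (median log2 fold change -0.12) and 4 with 8 (median 0.0022). The lysophosphatidylcholine acyltransferase Lpcat3 had 0.01 (SE 0.11) with 9 tumors and 0.06 with 8, and the lysosomal phospholipase Pla2g15 had 0.15 (SE 0.18) and 0.05. Lpcat4, another acyltransferase, had 10.4 CPM in replicate 5, against 27.1 to 44.0 CPM in the other R-propranolol tumors and 41.8 to 47.2 CPM in vehicle tumors, and its log2 fold change was -0.48 (SE 0.35) with 9 tumors and -0.26 (SE 0.14) with 8. For breakdown to choline, 9 of 12 genes were higher with 9 tumors (median 0.24) and 4 with 8 (median -0.05). Enpp2, which encodes autotaxin, a secreted lysophospholipase D that frees choline, had 270.3 ± 153 CPM in R-propranolol tumors and 445 ± 90.1 CPM in vehicle tumors (SD, n = 5 and 4), a log2 fold change of -0.72 (SE 0.46, adjusted p = 0.876 from edgeR). Replicate 5 was lowest at 73.3 CPM, against 147 to 431 CPM in the other R-propranolol tumors, and with 8 tumors the log2 fold change was -0.48 (SE 0.30). The phosphocholine phosphatase Phospho1 had 39.0 CPM in replicate 5, against 2.95 to 6.47 CPM in the other R-propranolol tumors and 2.26 to 4.37 CPM in vehicle tumors. Its log2 fold change was 1.77 (SE 0.82) with 9 tumors and 0.46 (SE 0.32) with 8. Zfp652, which runs in the same direction, covers 1818 of the 2029 exon bases of Phospho1, and Abi3 covers 1708 from the opposite strand. Little of its sequence is therefore its own, and the count of Phospho1 may be understated.
Sphingomyelin synthase Sgms2 and its relative Samd8 had log2 fold changes of -0.35 (SE 0.26) and 0.23 (SE 0.11) with 9 tumors, and -0.19 (SE 0.15) and 0.17 (SE 0.09) with 8. Sgms2 was at 33.2 CPM in replicate 5, against 69.1 to 75.8 CPM in the other R-propranolol tumors and 64.7 to 109 CPM in vehicle tumors. In the last list, Ache, which encodes acetylcholinesterase, had 44.1 CPM in replicate 5, against 0.369 to 1.56 CPM in the other R-propranolol tumors and 0.270 to 0.818 CPM in vehicle tumors, and a log2 fold change of 4.10 (SE 1.66) with 9 tumors and 0.60 (SE 0.55) with 8. Choline dehydrogenase Chdh had 14.6 CPM in replicate 5, against 0.246 to 0.760 CPM in the other R-propranolol tumors and 0.237 to 1.31 CPM in vehicle tumors, and a log2 fold change of 1.93 (SE 1.31) with 9 tumors and -0.76 (SE 0.55) with 8. Its partner in the oxidation of choline to betaine, Aldh7a1, had a log2 fold change of 0.37 (SE 0.27) with 9 tumors and 0.18 with 8. Over the 43 genes together, the median log2 fold change was 0.12 with 9 tumors and -0.01 with 8.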

How the data were processed

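Per the labels and the study's methods, libraries of 9 tumors were prepared with a NEBNext Ultra kit, reads were aligned by STAR to mm10, and HTSeq assigned them to genes. The deposited values are whole counts without normalization. The sources used here do not give tool versions, the annotation or the strand setting, so reads from a gene and its partner on the other strand cannot be told apart. Reads outside genes (13.4% to 15.4% of those listed), reads that were ambiguous (1.81% to 1.98%) or mapped to several places (3.46% to 3.99%, but 7.86% in R-propranolol replicate 5) were left out of library sizes.

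Genes kept by filterByExpr (minimum count 10, minimum total 15) were compared by the quasi-likelihood test of edgeR 4.0.16 in R 4.3.3 after TMM scaling, with p adjusted over all genes by the method of Benjamini and Hochberg and a threshold of 0.05. The 95% intervals use its SE and degrees of freedom. Exact permutation tests ran over the 126 splits of 9 tumors or the 70 of 8. The test was checked on simulated counts. Alternatives were DESeq2 1.42.0 and its size factors, library size alone, limma-voom with quality weights (limma 3.58.1), keeping all genes, keeping genes at 1 CPM in 4 tumors, each tumor left out, vehicle replicates 1 and 2 summed, and blocking on replicate number. Another 14 settings, all without replicate 5, were chosen after seeing the data.

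The members and lists were chosen with earlier results of these data known. All 10 members are named. For each pathway list the 2 genes of smallest p and the most abundant per length are named, and for marker lists the most abundant where a member moves with the list. The rank per length leaves out genes whose symbol had no length, such as Ept1 and Ppap2a. Gene places and exon lengths are from GENCODE M21. The mouse numbers aside, no label says that libraries came from separate animals, so p-values measure the spread between these libraries.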

Additional observations from a re-analysis of the deposited data

Results flagged for a closer look

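In each group of 4 or 5 tumors, the highest and the lowest tumor were compared with the others by the ratio of their gap to the whole range (Dixon's ratio). For a single independent group, chance gives a far tumor about 1 time in 20. The groups of the 10 genes come from the same tumors, so a count over them cannot be set against that rate. Over the 20 groups, 8 held a tumor that lay far from the rest. In R-propranolol replicate 5 these were Pcyt1a (188 CPM, against 84.8 to 94.9 CPM in the other treated tumors), Pcyt1b (2.53 CPM, against 22.6 to 28.2 CPM), Chpt1 (349 CPM, against 31.3 to 44.4 CPM), Slc44a2 (260.3 CPM, against 180.0 to 199.9 CPM), Slc44a3 (5.79 CPM, against 0.0820 to 0.720 CPM) and Slc22a3 (13.7 CPM, against 0.123 to 0.841 CPM). Chka in the same tumor was not among them. These CPM are after TMM scaling, with a factor of 0.753 for that tumor. In vehicle tumors they were Cept1 in replicate 1 (55.1 CPM, against 71.3 to 73.1 CPM) and Slc44a3 in replicate 3 (1.15 CPM, against 0.385 to 0.430 CPM).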

How the results depend on the processing

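Every member given an adjusted p stayed above 0.05 under each of the 31 alternatives, with a lowest adjusted p of 0.117 (Chka, DESeq2 with 8 tumors), although DESeq2 gave no adjusted p for Slc44a3 and Slc22a3, for Chpt1 with 9 tumors and for Pemt with 8. Over all genes DESeq2 called 2 genes with 9 tumors and 20 with 8, and the other alternatives called 0. Members at an unadjusted p under 0.05 numbered 2 (Chka and Slc44a1) by limma-voom with quality weights, against 838 of 13901 genes. There was 1 (Cept1) with vehicle replicates 1 and 2 summed, against 100 of 14173 genes. When tumors were left out there were 0 to 3, against 103 to 743 genes. Without replicate 5, such members numbered 2 with DESeq2 size factors and with DESeq2, against 525 and 604 of 13743 genes. They numbered 3 with library size alone (515 of 13743 genes), limma-voom (861 of 13743) or the summed vehicle replicates (368 of 14008). Members whose groups did not overlap numbered 1 to 3 when tumors were left out and 2 with library size alone and 8 tumors. Among these settings, the share of all genes was counted only with replicate 5 alone left out. It was 1.83% on the higher side and 1.09% on the lower. Without replicate 5, Chka (0.29 to 0.47) and Pcyt1b (-0.36 to -0.21) were under an unadjusted p of 0.05 in 15 of 15 settings, and Cept1 in 3 of 15. These settings refit the same 8 tumors or part of them, so they are not independent of each other. The share of all genes under that p in 15 of 15 settings was not counted.

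A block by replicate number gave 2 members, Chka and Pcyt1b, with 9 tumors and 2 with 8, at an unadjusted p under 0.05. Of all genes, 283 of 13901 were under it with 9 tumors and 268 of 13743 with 8. In the block, replicate 5 has no vehicle partner and so adds nothing to the difference. Deviations of same-numbered tumors from their group means correlated at -0.30, 0.07, -0.64 and 0.53. The R-propranolol mean included replicate 5, so these values do not settle whether same-numbered tumors were paired.

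Signs of members that were not called changed as follows. Chpt1 was -0.056 with the block, and without replicate 5 it was -0.052 with DESeq2 size factors or DESeq2, -0.10 with library size alone, -0.058 with the block and -0.0996 with summed vehicle replicates. Slc44a1 was -0.012 with library size alone. Slc44a2 was -0.070 with library size alone, -0.014 by limma-voom and -0.017 with the block, and without replicate 5 it was -0.019 with DESeq2 size factors, DESeq2 or the block, -0.077 with library size alone, -0.016 by limma-voom and -0.060 with summed vehicle replicates. Slc44a3 was -0.76 by limma-voom and -0.88 with the block, and without replicate 5 it was -0.77 with DESeq2 size factors or DESeq2, -0.84 with library size alone, -0.76 by limma-voom, -0.89 with the block and -0.91 with summed vehicle replicates. Leaving tumors out, the log2 fold change ran between -0.0050 and 0.47 for Chka (lowest without R-propranolol replicate 2), -0.15 and 1.57 for Chpt1, -0.079 and 0.15 for Slc44a2, -1.35 and 1.75 for Slc44a3 and -0.37 and 3.47 for Slc22a3. The filter of 1 CPM in 4 tumors removed Slc44a3 and Slc22a3. Their 1 to 29 counts outside replicate 5 limit both estimates. Apart from leaving out replicate 5, the cause of these changes was not tested.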
